A study of Caenorhabditis elegans with 6 samples.

Results

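The genes described here are the protein-coding genes of Caenorhabditis elegans that encode translation factors and aminoacyl-tRNA synthetases. The rule for membership uses the gene symbol and no measured value, but the set was proposed with earlier results of these data known. The translation factor symbols begin with eif, iff, eef, ife or ifg, and the synthetase symbols have the form of a letter for the amino acid, then "ars", then 1 or 2. The rule found 71 of the 19971 nuclear protein-coding genes of assembly WBcel235: 31 initiation factor genes, 8 elongation factor genes, 20 synthetase genes ending in -1 and 12 ending in -2. Genes of translation that carry other names, such as inf-1 (the eIF4A helicase) and fars-3 (a subunit of phenylalanyl-tRNA synthetase), fall outside the rule and are described separately.

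Accessible chromatin was measured in sorted nuclei with ATAC-seq, where a transposase (Tn5) cuts open DNA and adds adapters. The nuclei came from mixed-stage animals that were mostly larvae. There were 3 samples of neuronal nuclei, sorted as positive for GFP and for the DNA stain DAPI, and 3 samples of total nuclei, sorted on DAPI alone, with 50000 nuclei in each sample. All 6 samples came from strain OH11061 with the genotype otIs381, a transgene in which the ric-19 promoter puts GFP into the nuclei of neurons, and the total nuclei also include neurons. The data are 1 list of peaks called reproducible per group on build ce11, 2313 peaks for neuronal nuclei and 2683 for total nuclei. Whether this was judged between the 3 samples is not stated, and the lists hold no value per sample. Every statement below therefore compares these 2 lists or 2 sets of genes, no spread between samples can be given, and no test was made.

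The lists were first set against tissue markers. Of 6 pan-neuronal genes examined, 1 had a summit within 1000 bp of a gene end in the neuronal list and 2 had one in the total list. Over all protein-coding genes the shares with such a summit were 11.4% in the neuronal and 13.6% in the total list. The pan-neuronal gene in both lists was ric-19, whose promoter drives the reporter (fold enrichment over local background, called fold from here on, 51.5 in the neuronal and 51.9 in the total list), and the one in the total list alone was snb-1 (fold 6.55). The ric-19 folds were the highest of each list. All 6 samples also carry the ric-19 promoter in the transgene, and reads of that copy may map to this site. Their part in these folds was not tested. Of 5 marker genes of other tissues, 3 had a summit within 1000 bp of an end in the neuronal list and 2 in the total list. In both lists were the muscle myosin gene unc-54 (fold 15.9 in the neuronal and 16.2 in the total list) and the intestinal gene elt-2 (5.89 in the neuronal and 5.59 in the total list). The germline gene glh-1 had a peak in the neuronal list alone (fold 6.46). The part of nuclei of other tissues in the results below was not tested. Reads over each summit, recovered from the deposited values, had a median of 1920 in the neuronal and 1204 in the total list, so the neuronal list rests on more reads per site.

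Protein synthesis starts when initiation factors bring the small ribosomal subunit and the initiator tRNA to the capped 5′ end of an mRNA and find the start codon. Elongation factors then deliver charged tRNAs and move the ribosome along, and the charging of each tRNA with its amino acid is done by the synthetases. These proteins are needed in every cell, and in C. elegans several of them exist as paralogs that differ in the tissues where they are used. Synthetases of cytosol and of mitochondria are often encoded by separate genes, and the gene table does not say which of a pair serves which compartment.

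As a set, translation factor and synthetase genes carried a peak near an end more often than other genes did, but most carried none, and the synthetase genes alone lay nearer to the share of other genes. A summit lay within 1000 bp of either end of 17 of the 71 genes in the neuronal list (23.9%, exact binomial 95% interval 14.6% to 35.5%), against 2251 of 19900 other protein-coding genes (11.3%). In the total list it was 22 of 71 genes (30.99%, 20.5% to 43.1%), against 2688 of 19900 (13.5%). Counting a peak in either list, the numbers were 23 of 71 (32.4%, 21.8% to 44.5%) and 2789 of 19900 (14.0%). Over all 19971 genes the shares with a peak were 11.4% in the neuronal list, 13.6% in the total list and 14.1% in either. Other genes with a named symbol (letters, a hyphen and a number) had higher shares than all other genes. They were 13.4% in the neuronal list, 16.1% in the total list and 16.6% in either. The intervals cover counting error only, and genes are not replicates of a condition. The gene table gives no strand, so an end can be the 5′ or the 3′ end.

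**Figure D1:**
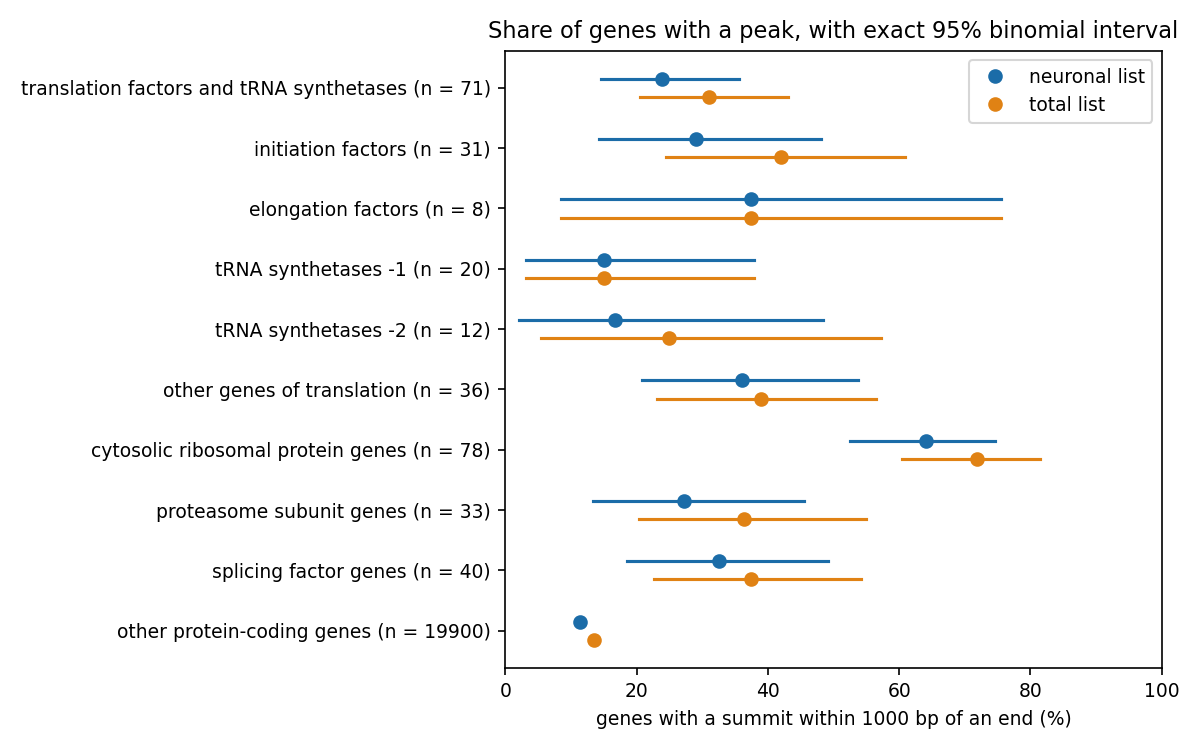
Share of genes with a summit within 1000 bp of a gene end (%, points) with exact 95% binomial intervals (lines), in the neuronal list (upper point of each pair) and the total list (lower point). The 71 translation genes sit at 23.9% and 30.99%, above the other protein-coding genes at 11.3% and 13.5% and below the cytosolic ribosomal protein genes at 64.1% and 71.8%.

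Among the roles, initiation factor genes had peaks in 9 of 31 cases in the neuronal list (29.0%, 14.2% to 48.0%) and in 13 of 31 in the total list (41.9%, 24.5% to 60.9%). Elongation factor genes had them in 3 of 8 cases in each list (37.5%, 8.52% to 75.5%). The 32 synthetase genes had 5 in the neuronal list (15.6%, 5.28% to 32.8%) and 6 in the total list (18.8%, 7.21% to 36.4%). These intervals overlap widely, so the order of the roles is a description of the lists. The intervals of the synthetase and elongation genes include the shares of other genes, 11.3% in the neuronal and 13.5% in the total list. By the ending of the symbol, the synthetases with a peak in either list were 4 of 20 for -1 (20%) and 3 of 12 for -2 (25%), against 14.0% of other genes.

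The eIF2B complex reloads eIF2 with GTP, a step that cells control under stress. Its subunit gene eif-2Bgamma had a peak whose fold ranked second among translation genes in the neuronal list and first in the total list. The peak lay on chromosome II from 6967472 to 6968895 in the neuronal list, with a fold of 15.2 over local background, and from 6967472 to 6968932 in the total list, with a fold of 16.5. These folds stand on 4429 and 3019 reads over the summit in the neuronal and the total list, the most among all peaks near these genes. The summit was 914 bp outside the gene in both lists, near the edge of the window, and an end of the neighbouring gene C15F1.5 was nearer, at 662 bp. None of the other 4 eIF2B subunit genes had a summit within 1000 bp in either list. The same held for the 3 eIF2 subunit genes (eif-2alpha, eif-2beta and eif-2gamma). Over all genes 11.4% had a peak in the neuronal and 13.6% in the total list, so having none is the usual case. The nearest summit was 1692 bp from eif-2Balpha in both lists and 1876 and 1878 bp from eif-2beta in the neuronal and total list. From eif-2alpha it was 8077 bp in the neuronal and 1778 bp in the total list. It was more than 2000 bp from eif-2gamma, eif-2Bbeta, eif-2Bdelta and eif-2Bepsilon in both lists.

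The eIF4E proteins bind the mRNA cap, and of their 5 genes ife-2 and ife-4 had peaks while ife-1, ife-3 and ife-5 had none within the window. In each list that was 2 of 5 genes (40%, 5.27% to 85.3%), against 11.4% of all genes in the neuronal and 13.6% in the total list. The gene ife-3 missed the window narrowly. Its nearest summit was 1077 bp away in the neuronal list (fold 12.1) and 1093 bp away in the total list (fold 13.2). In C. elegans ife-2 and ife-4 are known from somatic cells, ife-4 from neurons and muscle among them, and ife-1 from the germline. The ife-4 peak ran on chromosome X from 1103533 to 1104132 in the neuronal list (600 bp, fold 13.3) and from 1103583 to 1104145 in the total list (563 bp, fold 15.1). Its summit was 295 bp outside the gene in both lists, and no other gene's end was nearer.

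The gene ife-2 had 1 peak in the neuronal list and 2 in the total list, at opposite ends of the gene. The peak at the higher-numbered end had the same borders in both lists, chromosome X from 382406 to 383299 (894 bp), a summit 215 bp outside the gene, and folds of 9.38 in the neuronal and 9.37 in the total list. The peak at the lower-numbered end, from 380883 to 381513 with a fold of 8.80 and its summit 196 bp outside the gene, was in the total list alone. The nearest neuronal summit to it was 1735 bp away. Thus ife-2 was flanked by open sites on both sides in the total list and on 1 side in the neuronal list.

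At ifg-1, which encodes the eIF4G scaffold that joins the cap-binding protein to the ribosome, the picture was similar. A wide peak on chromosome II, from 8215761 to 8217309 in the neuronal list (1549 bp, fold 12.4) and from 8215743 to 8217022 in the total list (1280 bp, fold 13.7), had its summit 713 bp from the gene and 107 bp from its neighbour M110.3. A further peak at the other end, from 8222430 to 8223037 (608 bp, fold 7.57, summit 445 bp outside the gene), was in the total list alone. Only ife-2 and ifg-1 among the 71 genes had 2 peaks in a list, both in the total list. How often other genes have 2 peaks was not counted. The gene ifet-1, a translation gene outside the rule, had 2 in each list.

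The start codon factor genes eif-1 and eif-1.A also lay near open sites. The eif-1.A peak had its summit 365 bp outside the gene in both lists, with folds of 8.68 in the neuronal and 10.5 in the total list and widths of 1479 and 1320 bp. The eif-1 peak was in the total list alone, on chromosome II from 4993226 to 4994408 (1183 bp, fold 8.92), with its summit 407 bp from eif-1 and 230 bp from vps-24. The eif-4A3 peak (fold 7.94 in the neuronal and 7.84 in the total list) was also nearer to a neighbour. Its summit was 483 and 473 bp from eif-4A3 and 27 and 17 bp from vps-20. The eIF4A3 protein is known as a helicase of the exon junction complex.

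Subunits of eIF3, the scaffold that holds the small ribosomal subunit ready for the mRNA, had peaks at 3 of 11 genes in the neuronal list and at 6 of 11 in the total list. The shares were 27.3% (6.02% to 61.0%) in the neuronal and 54.5% (23.4% to 83.3%) in the total list, with overlapping intervals. Over all genes they were 11.4% and 13.6%. Peaks of eif-3.B, eif-3.C and eif-3.H were found in both lists. Those of eif-3.E, eif-3.G and eif-3.I were found in the total list alone. At eif-3.B the folds were 9.42 in the neuronal and 10.1 in the total list, with the summit 301 bp outside the gene. At eif-3.C they were 7.74 and 8.34, with the summit 201 bp from eif-3.C and 200 bp from sys-1, so the site lies between both genes. At eif-3.H the fold was 7.41 in the neuronal list, over a peak of 2143 bp that was the widest near any of these genes, and 9.27 in the total list, over a peak of 1563 bp.

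The 3 eIF3 peaks of the total list alone were close to their genes. The eif-3.E peak ran on chromosome I from 10641890 to 10643039 (1150 bp, fold 8.997, summit 181 bp outside the gene). The eif-3.I peak ran on chromosome I from 2485169 to 2486119 (951 bp, fold 9.97), with its summit 236 bp from eif-3.I and 234 bp from abtm-1. The eif-3.G peak ran on chromosome II from 8441394 to 8442967 (1574 bp, fold 7.23), with its summit 409 bp from eif-3.G and 207 bp from lips-10. When the total list was shortened to the 2313 peaks with the best p-values, eif-3.E, eif-3.G and also eif-3.C lost their peak, so that 3 of 11 eIF3 genes had one in each list at equal list length.

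Each elongation factor gene with a peak had a paralog with none in the window. Most genes had none, since over all genes 11.4% had a peak in the neuronal and 13.6% in the total list. By these shares a paralog without a peak is the usual case. Among the synthetases, fars-1 and fars-2 both had peaks. The eEF1A proteins carry charged tRNAs to the ribosome and are encoded by eef-1A.1 and eef-1A.2. At eef-1A.2 the peak ran on chromosome X from 7822911 to 7823591 in the neuronal list (681 bp, fold 14.7, summit 346 bp outside the gene, 3045 reads over the summit) and from 7822847 to 7823497 in the total list (651 bp, fold 15.6, summit 388 bp outside, 2018 reads). No other gene had an end within 1000 bp of this summit. At eef-1A.1, also known as eft-3, whose promoter is widely used to drive transgenes in all somatic tissues, the nearest summits were 7305 bp away in the neuronal and 7269 bp away in the total list. Reads of these close paralogs may map to either copy, and no source used here says how such reads were treated.

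A like pair encodes eIF5A, which helps ribosomes past difficult stretches. In C. elegans iff-1 is known from the germline and iff-2 from somatic cells. The iff-2 peak ran on chromosome II from 8560835 to 8561749 in the neuronal list (915 bp, fold 12.7) and from 8560845 to 8561769 in the total list (925 bp, fold 14.1), with the summit 416 bp outside the gene in both. For iff-1 the nearest summit was 18431 bp away in both lists. The third elongation gene with a peak was eef-1B.1, for a subunit of the exchange factor of eEF1A, with folds of 8.13 in the neuronal and 8.66 in the total list. This peak lay on chromosome III, from 7972658 to 7974438 in the neuronal list (1781 bp) and from 7972829 to 7974433 in the total list (1605 bp), and its summit was 29 bp inside the gene. The remaining elongation genes without a peak in the window were eef-1B.2, eef-1G and eef-2. At eef-2, the translocation factor, the nearest summit was 1869 bp away in the neuronal list (fold 5.28) and 21761 bp away in the total list.

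Of the synthetases, aars-1, for alanyl-tRNA synthetase, had the highest fold of all 71 genes in the neuronal list. Its peak ran on chromosome II from 11463958 to 11464941 (984 bp, fold 15.5) in the neuronal list and from 11463900 to 11464992 (1093 bp, fold 16.4) in the total list, with 3486 and 2235 reads over the summit. The summit lay 78 bp outside the gene in both lists, so that the peak covered the gene end. Its counterpart aars-2 had no summit closer than 8080 bp in the neuronal and 8079 bp in the total list.

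The phenylalanyl-tRNA synthetase genes fars-1 and fars-2 both had peaks. At fars-2 the peak on chromosome V, from 19897412 to 19898433 in the neuronal list (1022 bp, fold 14.2) and from 19897391 to 19898238 in the total list (848 bp, fold 15.5), had its summit 292 bp outside the gene. The local background at fars-2 was at the lowest value of the neuronal list, 110.3 reads. The same minimum was found among the peaks not near translation genes. In the total list the fars-2 background was within rounding of the lowest, 69.1 reads. At fars-1 the summit lay inside the gene, 913 bp from its end in the neuronal and 911 bp in the total list, in a peak on chromosome I from 6212567 to 6213184 (fold 9.65) and from 6212644 to 6213182 (fold 9.95). Among the genes with a summit in the window, fars-1 and eef-1B.1 were those whose summit lay inside the gene.

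The peak of ears-2, for glutamyl-tRNA synthetase, was centred almost on the gene end. It had the same borders in both lists, chromosome IV from 390204 to 390934 (731 bp), a summit 11 bp outside the gene, and folds of 7.27 in the neuronal and 7.65 in the total list. Over the summit lay 2684 reads in the neuronal and 1920 in the total list, on a local background of 368.4 and 250.2 reads, the highest near any of these genes.

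The methionyl-tRNA synthetase genes mars-1 and mars-2 had peaks in the total list alone. The mars-1 peak, on chromosome IV from 11635137 to 11636867, was 1731 bp wide, with a fold of 7.26 and a summit 482 bp outside the gene. The mars-2 peak, on chromosome I from 14496236 to 14497155 (920 bp, fold 7.38), had its summit 73 bp outside the gene. Both peaks were absent when the total list was shortened to 2313 peaks. In the neuronal list the nearest summit was 29682 bp from mars-1 and 17538 bp from mars-2.

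The gene for seryl-tRNA synthetase, sars-1, was the single translation gene with a peak in the neuronal list and none in the total list within the window. This peak ran on chromosome IV from 10003215 to 10003990 (776 bp) with a fold of 5.64, the lowest near any of these genes in either list. By p-value 2.55% of neuronal peaks were weaker. The summit lay 171 bp outside sars-1 and 53 bp from an end of C47E12.2. The nearest summit of the total list to sars-1 was 2388 bp from the gene, with a fold of 6.65. Over all genes, 0.511% had a summit within 1000 bp in the neuronal list and none in the total list, and among the translation genes it was 1 of 71.

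In the lists as deposited, 6 of 71 translation genes had a peak in the total list alone and 1 in the neuronal list alone. At equal list length the numbers were 2 and 3 of 71, too few to rank the lists. A summit in the total list and none in the neuronal list was found at 6 of the 71 translation genes (8.45%), eif-1, eif-3.E, eif-3.G, eif-3.I, mars-1 and mars-2, against 2.72% of all genes. With the further peaks at ife-2 and ifg-1, 8 of the 24 total peaks near translation genes overlapped no neuronal peak (33.3%), against 459 of the 2659 other total peaks (17.3%). Their folds were 7.23 to 9.97, and by p-value between 3.43% and 29.7% of the total list was weaker. With the total list shortened to 2313 peaks, eif-1 and eif-3.I were the 2 of these 6 genes left with a total peak. In that setting 3 genes, sars-1, eif-3.C and eif-4A3, had a neuronal peak alone, against 2 with a total peak alone. Among the 19900 other genes the numbers were then 196 with a neuronal peak alone and 243 with a total peak alone, so the total list stayed ahead there. A site missing from a list was not called reproducibly there, which does not show it to be closed.

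**Figure D2:**
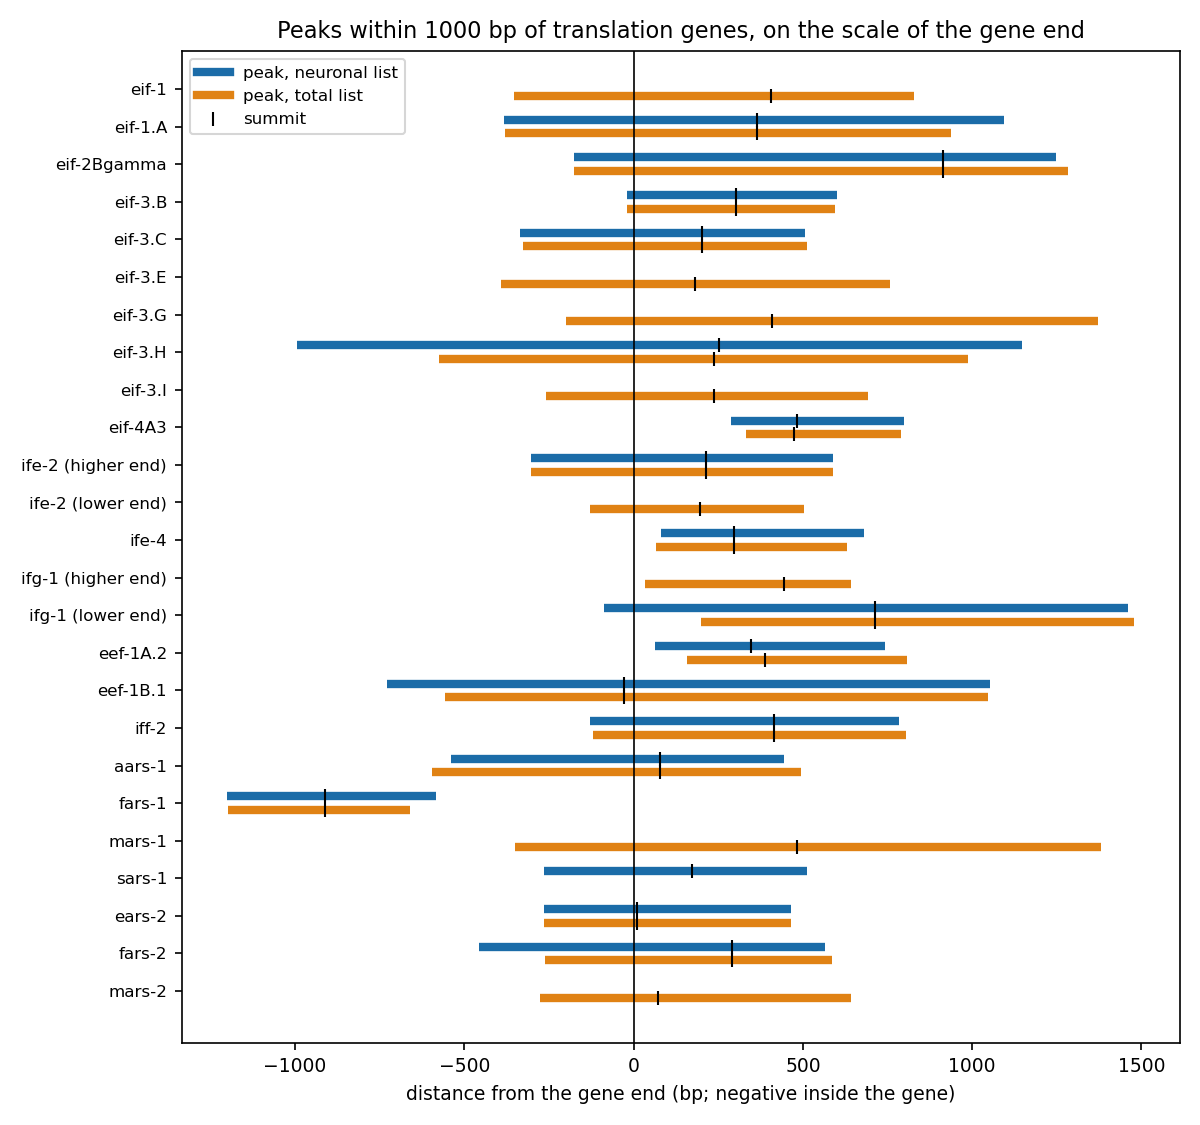
Peaks near translation genes, drawn as distance from the gene end (bp, negative inside the gene) for each gene, with the peak of the neuronal list above that of the total list and the summit as a black tick. Summits lie outside the gene except at fars-1 and eef-1B.1, and the sites of 16 genes are found in both lists at nearly the same position.

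The sites found in both lists coincided. All 16 genes with a peak in both lists had 1 pair of overlapping peaks, and 12 of the 16 pairs had the same summit base (75%), against 52.3% of the other 2183 pairs. The widest shift was 42 bp, at eef-1A.2. The fold was lower in the neuronal list in 14 of the 16 pairs (87.5%), against 83.6% of the other pairs, so most shared sites in these lists had that direction. The median log2 ratio of fold, neuronal over total, was -0.10 for translation genes (range -0.32 to 0.02) and -0.09 for the other pairs. The lowest ratios were at eif-3.H (-0.32) and eif-1.A (-0.27), and the pairs above 0 were at eif-4A3 (0.02) and ife-2 (0.00064). Reads over the summit were 1.25 to 1.698 times as many in the neuronal as in the total list, with a median of 1.47 for translation genes and 1.48 for the other pairs.

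**Figure D3:**
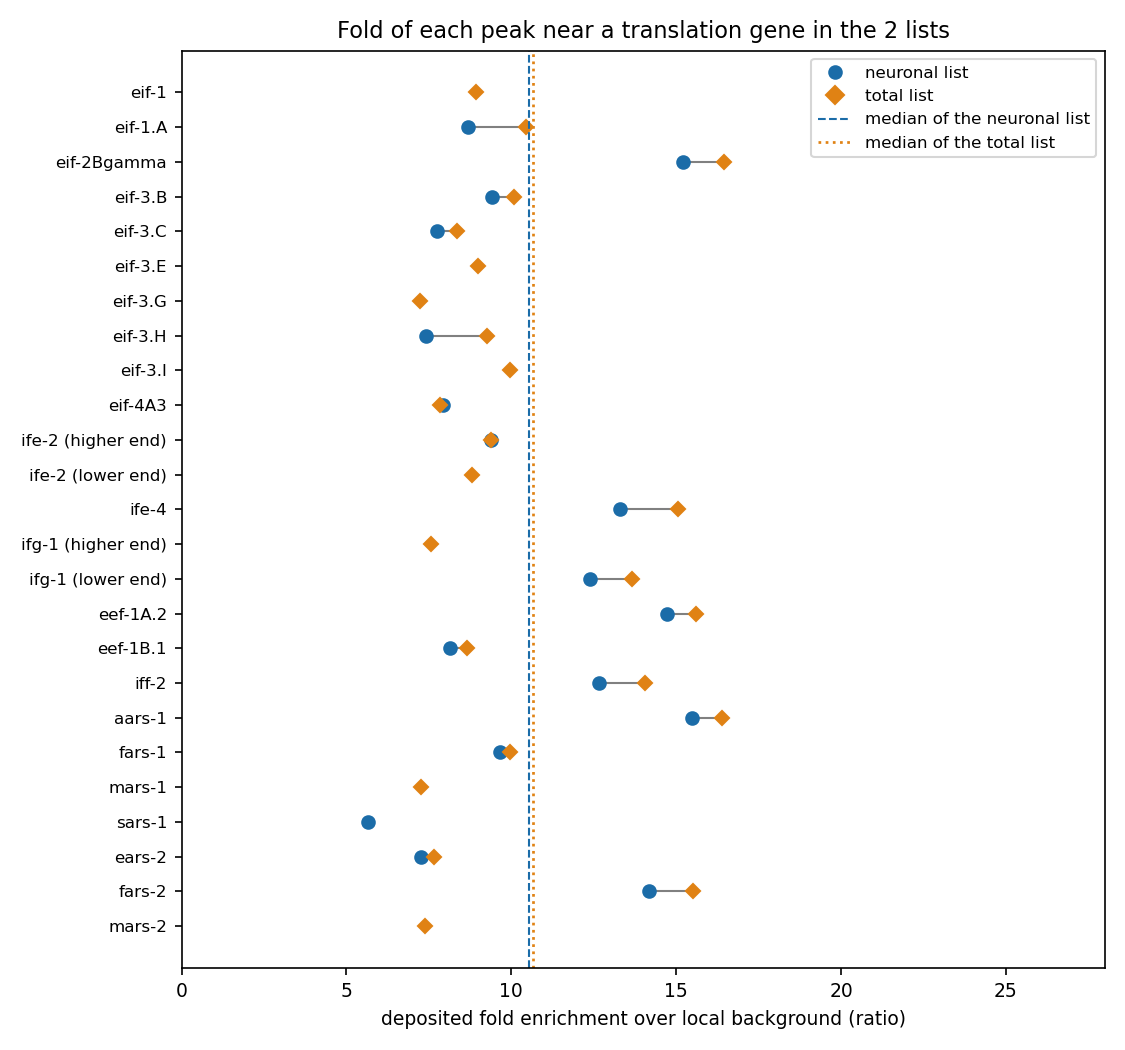
Deposited fold enrichment over local background (ratio, linear axis from 0) of each peak near a translation gene, with circles for the neuronal list and diamonds for the total list, grey lines joining overlapping peaks and vertical lines at the list medians of 10.5 and 10.7. Split at the widest gap between neuronal folds, 1 group lies from 5.64 to 10.5, left of both medians. The other, of 7 genes, lies from 12.4 to 16.5, right of them.

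The folds near translation genes were split into a lower and a higher group at the widest gap between neuronal folds. Such a cut always leaves 2 groups with none in between, and no like gap was sought among other peaks. In the neuronal list 10 peaks had folds of 5.64 to 9.65 and 7 had folds of 12.4 to 15.5, with none in between. The 7 genes of the higher group were aars-1, eif-2Bgamma, eef-1A.2, fars-2, ife-4, iff-2 and ifg-1. The same 7 had folds of 13.7 to 16.5 in the total list, above all other peaks near translation genes there. These are the same sites in both lists, so the second list is no separate support for the split. The higher group held 3 of 9 initiation, 2 of 3 elongation and 2 of 5 synthetase peaks of the neuronal list. The median fold near translation genes was 9.42 in the neuronal list (17 peaks, range 5.64 to 15.5), against 10.5 for the other 2296 peaks. In the total list it was 9.32 (24 peaks, range 7.23 to 16.5), against 10.7 for the other 2659 peaks. A score of 1000, the top of the deposited reproducibility scale, was given to 13 of 17 neuronal peaks (76.5%) and 19 of 24 total peaks (79.2%) near translation genes, against 90.2% and 90.1% of the other peaks.

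Peaks near translation genes had a median width of 894 bp in the neuronal list (range 514 to 2143 bp), against 798.5 bp for other peaks. In the total list the median was 922.5 bp (range 459 to 1731 bp), against 820.0 bp. Widths above 1000 bp were found for 6 of 17 neuronal peaks (35.3%), against 29.3% of the others, and for 10 of 24 total peaks (41.7%), against 31.7%. Of the peaks near translation genes, that of eif-4A3 was the narrowest in each list.

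In genes with a peak, the nearest summit was a median of 295 bp from the end in the neuronal list and 298 bp in the total list, against 317 bp and 301.5 bp for other genes with a peak. The summit was outside the gene in 15 of 17 pairs of gene and peak in the neuronal list and in 22 of 24 in the total list. By the nearest summit of each gene with a peak, it was inside for 11.8% of translation and 11.0% of other genes in the neuronal list. In the total list these shares were 9.09% and 10.6%. Peaks were wide enough to cover the gene end itself in 13 of 17 and 18 of 24 cases.

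The assignment of a peak to a translation gene was often ambiguous. Another protein-coding gene also had an end within 1000 bp of the summit in 12 of 17 cases in the neuronal list and in 19 of 24 in the total list. In 6 and 8 cases that other end was nearer. These nearer neighbours stood beside eif-2Bgamma, eif-3.C, eif-3.H, eif-4A3, ifg-1 and sars-1 in the neuronal list, and beside eif-1, eif-2Bgamma, eif-3.C, eif-3.G, eif-3.H, eif-3.I, eif-4A3 and ifg-1 in the total list. Other genes had similar shares. By the nearest summit of each gene with a peak, its own end was the nearest for 64.7% of translation and 65.0% of other genes in the neuronal list. In the total list it was 68.2% and 63.8%. When each peak counted only for the gene with the nearest end, 11 translation genes had a neuronal peak (15.5%, against 7.40% of other genes) and 15 had a total peak (21.1%, against 8.67%). Sites with no second gene in the window were those of eef-1A.2, eif-3.B, fars-1, fars-2 and the higher-numbered end of ife-2.

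Translation genes lie close to their neighbours. The gap to the next protein-coding gene had a median of 90 bp for the 71 genes and 250 bp for other genes, and it was under 500 bp for 64 of 71 translation genes (90.1%), against 64.5% of other genes. Gene length had a median of 2478 bp, against 2003 bp. Among genes under 500 bp from the next gene, 13 of 64 translation genes had a neuronal peak (20.3%, 11.3% to 32.2%), against 12.3% of other genes, and 18 of 64 had a total peak (28.1%, 17.6% to 40.8%), against 15.1%. The neuronal interval includes the share of other genes. The part of gene spacing in the remaining difference was not tested.

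**Figure D4:**
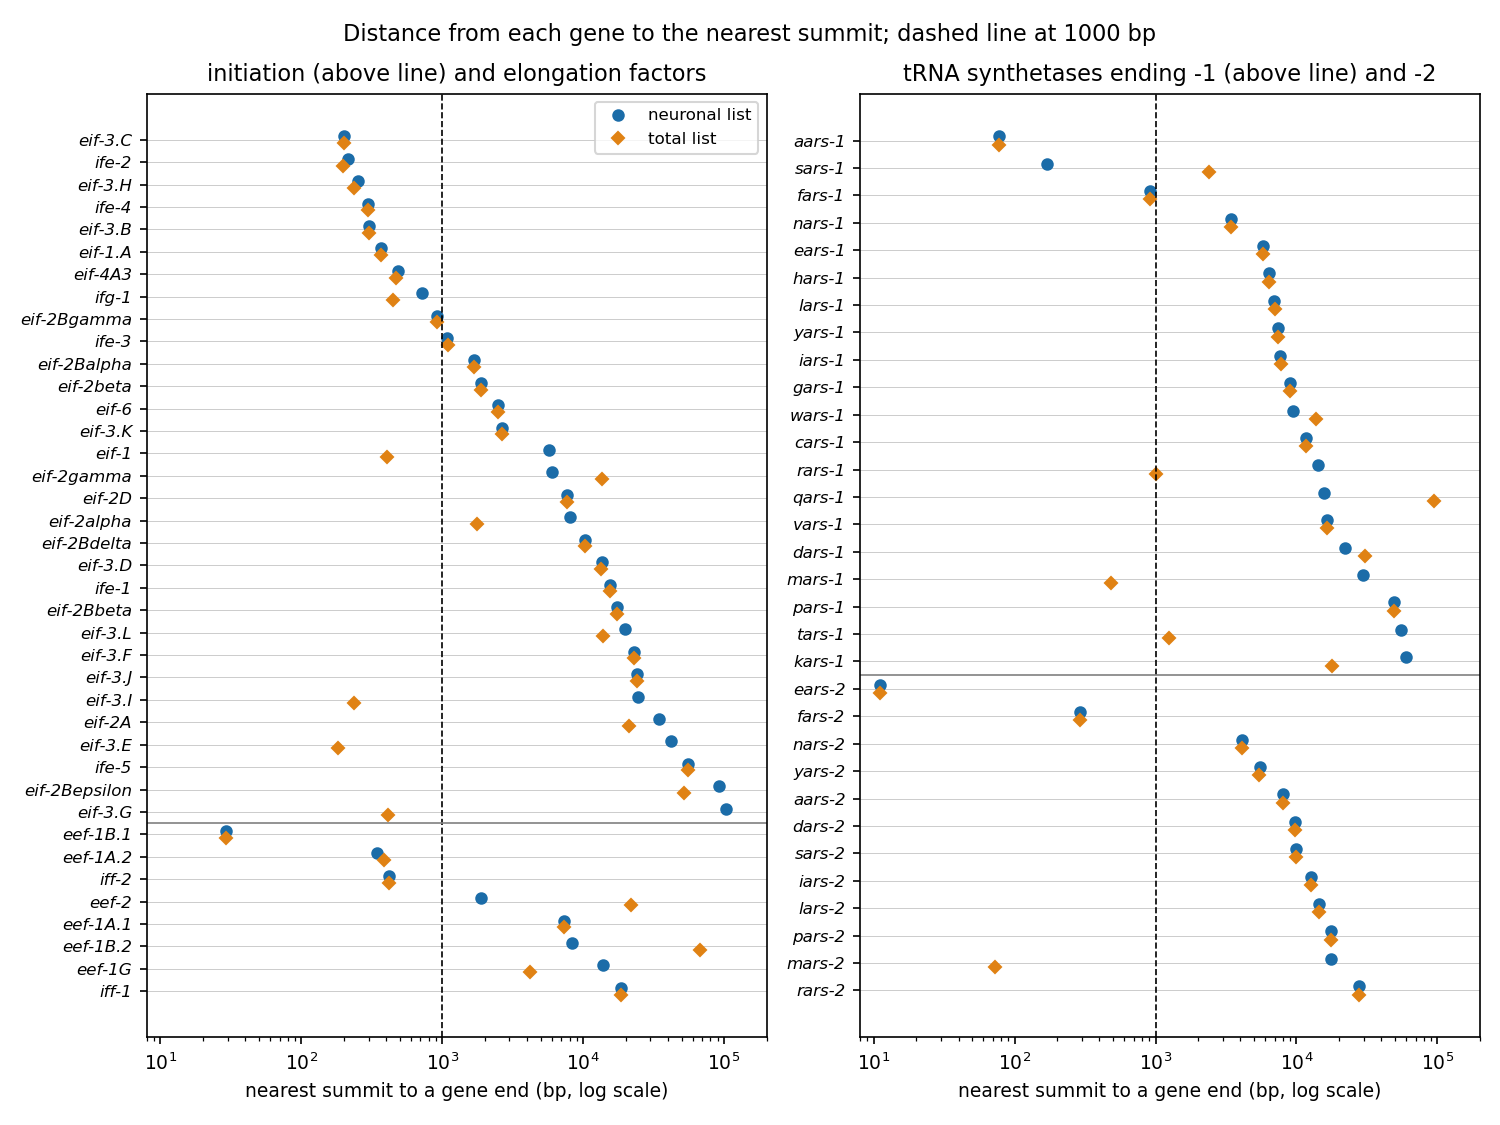
Distance from each of the 71 genes to the nearest summit (bp, log axis), with circles for the neuronal list and diamonds for the total list and a dashed line at 1000 bp. In most genes both lists give nearly the same distance, and genes with the diamond left and the circle right of the dashed line, such as eif-3.G, eif-3.E and eif-3.I, have a peak within 1000 bp in the total list alone.

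No summit lay within 1000 bp of 54 translation genes in the neuronal list and of 49 in the total list. Over all 71 genes the nearest summit was a median of 8077 bp away in the neuronal list (11 to 102972 bp) and 5796 bp away in the total list (11 to 94159 bp). The gene ife-3 lay just beyond the window, at 1077 bp from a neuronal summit of fold 12.1 and 1093 bp from a total summit of fold 13.2, and rars-1 (arginyl-tRNA synthetase) lay 1015 bp from a total summit of fold 6.98. Just inside the window were eif-2Bgamma at 914 bp and fars-1 at 913 and 911 bp. Beyond the window but within 2000 bp there were 4 genes in the neuronal list and 6 in the total list. A distance above 10000 bp was found for 29 genes in the neuronal and 25 in the total list.

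The synthetase genes ending in -2 without a peak in the window were aars-2, dars-2, iars-2, lars-2, nars-2, pars-2, rars-2, sars-2 and yars-2. At nars-2, for asparaginyl-tRNA synthetase, a site deep in the gene was open in both lists. It lay 4115 bp from the nearer end, on chromosome III from 11496173 to 11496954 in the neuronal list (fold 11.2) and from 11496318 to 11496967 in the total list (fold 10.1). The 16 synthetase genes ending in -1 without a peak had nearest summits from 3414 bp (nars-1) to 59915 bp (kars-1) away in the neuronal list. The 18 initiation genes without a peak had them from 1077 bp (ife-3) to 92411 bp (eif-2Bepsilon).

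By chromosome, all 3 translation genes on X (eef-1A.2, ife-2 and ife-4) had a peak in both lists, against 13.2% of other X genes in the neuronal and 14.9% in the total list. On chromosome III it was 1 of 12, eef-1B.1, in each list, against 14.9% and 18.1% of other genes there. In either list there were 7 of 22 genes on I, against 18.7% of other genes there, and 7 of 16 on II, against 12.5%. On IV there were 4 of 10, against 13.5%, and on V 1 of 8 (12.5%), against 9.40%. The numbers per chromosome are small and were not tested.

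Other genes of translation, a list of 38 partners and regulators of which 36 matched the gene table, had a peak in 13 of 36 cases in the neuronal list (36.1%, 20.8% to 53.8%) and 14 of 36 in the total list (38.9%, 23.1% to 56.5%). Among those acting with the initiation factors, inf-1 (eIF4A) had folds of 7.35 in the neuronal and 7.71 in the total list, drr-2 (a homologue of eIF4H) 12.6 in both, clu-1 9.57 and 10.5, the eIF4E-binding repressor gene ifet-1 9.88 and 11.0 at the nearer of its sites, and the poly(A)-binding protein gene pab-1 7.59 and 8.44. Both release factor genes had peaks, erfa-1 with folds of 7.48 and 8.05 and erfa-3 with 9.83 and 11.4. In the pathway by which eIF2 kinases slow initiation under stress, the kinase gene pek-1 had folds of 9.85 and 10.4 and the transcription factor gene atf-4 had 12.6 and 14.5, with summits 64 bp and 39 bp from the genes. The gene gcn-1, for an activator of the kinase GCN-2, had a peak in the total list alone (10.6), and gcn-2 itself had none in the window. Peaks were also near larp-1, abcf-2, fib-1 and tufm-1, the last for a mitochondrial elongation factor. The TOR pathway genes let-363, daf-15 and rsks-1 had none in the window, nor had fars-3.

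Compared with other sets of broadly used genes, the translation genes had fewer peaks than the cytosolic ribosomal protein genes, of which 50 of 78 had one in the neuronal list (64.1%, 52.4% to 74.7%) and 56 of 78 in the total list (71.8%, 60.5% to 81.4%). Proteasome subunit genes had 9 of 33 in the neuronal list (27.3%, 13.3% to 45.5%) and 12 of 33 in the total list (36.4%, 20.4% to 54.9%). Splicing factor genes had 13 of 40 (32.5%, 18.6% to 49.1%) and 15 of 40 (37.5%, 22.7% to 54.2%). The intervals of the proteasome and splicing sets overlap those of the translation genes, and no difference between the sets was tested.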

How the data were processed

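ATAC-seq was made from 6 samples in 2 groups, assigned by their titles. The submitters' processing notes name MACS2, Picard, bedtools 2.26, SAMtools 1.7, Bowtie2 2.2.6, cutadapt 1.9.1 and build ce11, with no role. Duplicate removal, the Tn5 shift and the way samples were joined are unstated (not given in the sources used here). Each group has 1 narrowPeak list deposited by the authors, named with an irreproducible discovery rate of 0.1. The names also hold the tag ppr, whose meaning is not stated, so what reproducibility was judged between is unknown. The deposited fold enrichment is a ratio to local background, the deposited score is a scaled reproducibility value up to 1000, the deposited −log10 p-value is the peak caller's and grows with depth, and the deposited summit offset places the summit. Read depth per sample is unknown.

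Here a gene counted as having a peak when a summit lay within 1000 bp of either end in the RefSeq gene table of WBcel235, the same sequence as ce11. Peaks overlapping by at least 1 bp counted as shared. Reads over the summit and local background were solved from fold and p-value, assuming default MACS2 formulas. The solved read numbers lay within 0.02 of a whole number for 99.8% of the neuronal peaks and 99.9% of the total peaks. Assignment and recovery were tested on simulated data. The recovery test used the same formulas to make its values, so it checks the solving and not whether those formulas hold for the deposited values. Python 3.11.15, numpy 2.4.6, scipy 1.17.1, pandas 2.3.3 and matplotlib 3.10.9 were used. Members and lists were chosen with earlier results of these data known. Named genes are all with a peak in the window. Full values are given for the 3 of highest neuronal fold in each role, those with a peak in 1 list alone, those with 2 peaks and those within 100 bp of the edge of the window. Genes without a peak are named in roles with at most 15 of them, or as examples picked with their values known. No set test was run. The planned motif counts and the use of the 5′ end alone were not run, since strand and sequence were not used here.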

Additional observations from a re-analysis of the deposited data

How the results depend on the processing

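No paired analysis was possible because each group is a single list without replicate values, which also prevents leaving out samples. Of 69 values recomputed under alternatives, 61 stayed within 1.5 times the reported value (0.1 for log2 ratios), 8 moved further and 0 changed sign. A change of sign was possible only for the median log2 ratio of fold, which ranged from -0.12 to -0.09 under the alternatives. The share of translation genes with a peak stayed above that of the other genes in all 30 share comparisons (10 settings, each for the neuronal, total and either list), from 1.65 to 2.96 times. With only the gene of the nearest end counted, 11 genes had a neuronal peak and 15 a peak in either list. With the stronger 50% of each list by p-value, 10 had a neuronal, 11 a total and 11 either peak, and the median fold of total peaks was 14.1, since weaker peaks are left out. Measured from any base of the peak, the median distance was 0 bp in both lists, since most peaks cover the gene end. The cut to genes under 500 bp from a neighbour was chosen after seeing the data. The neuronal list had the higher median of reads over the summit (1920 against 1204 in the total list) and fewer peaks (2313 against 2683). The part of depth in which weak sites reach a list was not tested. A gene absent from both lists may still be accessible.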
